A study of Mus musculus with 24 samples.

Results

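MiR-143 and miR-145a are microRNA hairpins that lie side by side in the mouse genome. Their 4 mature arms, mmu-miR-143-3p, mmu-miR-143-5p, mmu-miR-145a-5p and mmu-miR-145a-3p (written without the species prefix from here on), were followed in extracellular vesicles (EVs) from mouse serum after bone surgery. They were taken by name, as both arms of both hairpins, and are 4 of the 1966 mature miRNAs in the count table. Small RNA of serum EVs was sequenced from male wild type C57BL/6 mice aged 14 to 16 weeks, with 6 mice in each of 4 groups. Mice of the S6h, S24h and S72h groups had an open tibia fracture held with a pin, under isoflurane anaesthesia with buprenorphine analgesia, and were bled 6, 24 or 72 h later. S24h and S72h mice also had analgesia every day, while Control mice were given saline in the same volume. Surgery, anaesthesia and analgesia came together in every operated mouse and cannot be told apart. Operated mice were allotted to their times at random. The Control mice were those assigned to the 6 h animals, and no libraries of the control mice assigned to the later animals are in the table. In S24h and S72h the time after surgery and the daily analgesia cannot be told apart. Against Control or S6h, neither can any difference between the 6 h set of animals and the later set.

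As background, miR-143 and miR-145 are cut from a shared primary transcript that is most abundant in smooth muscle and other mesenchymal cells, and in the vessel wall both help to keep smooth muscle in its contractile state. Drosha and Dicer trim each hairpin to a short duplex of a 5p and a 3p arm. Argonaute usually keeps the guide arm and discards its partner, the passenger. In most tissues the guide is the 3p arm of miR-143 and the 5p arm of miR-145.

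In the GENCODE M21 annotation of GRCm38, both hairpins lay on the minus strand of chromosome 18. Mir143 (ENSMUSG00000065445.3) spanned 61649196 to 61649258 and Mir145a (ENSMUSG00000065592.2) spanned 61647825 to 61647894, with 1301 bases between them. The long noncoding RNA gene Carmn, at 61649625 to 61665537 on the same strand, had its 3' end 366 bases from Mir143. Mir145b, a copy of the miR-145 hairpin annotated elsewhere on the chromosome (69022199 to 69022273), had a row in the count table and 0 counts in all 24 libraries. None of the 4 arms had an entry in the RefSeq sequence table (0 of 4).

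The libraries were of modest depth, between 63956 and 471801 miRNA reads. Totals ran from 63956 to 263211 in Control, from 102568 to 471801 in S6h, from 66652 to 143856 in S24h and from 65017 to 245013 in S72h. Levels are given as CPM, the counts of an arm per 1000000 miRNA reads of the library, and since reads are 20 to 24 bases long for every arm, no length correction was needed. How well ligation and PCR captured each arm was not tested, so an order between arms is an order of reads, while a change of a ratio between groups compares the same arms. An arm with 0 counts may still have been present at up to 6.36 CPM in the deepest library and 46.9 CPM in the shallowest, for counting error alone.

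MiR-143-3p, the guide arm of its hairpin, was among the most abundant miRNAs of serum EVs in Control and S6h mice and a far smaller part of them in S24h mice. In Control its level was 8499 CPM in the lowest mouse, 16695 CPM at the median and 80227 CPM in the highest. In S6h it was 8707, 33765 and 60968 CPM. In S24h it was 2881, 3682 and 4179 CPM, a narrow range that lay wholly below every Control and every S6h mouse. In S72h it was 2113, 4508 and 12990 CPM, and only replicate 6 of that group, the highest, reached the Control range. By mean CPM it ranked 11 among all miRNAs in Control, 5 in S6h, 48 in S24h and 37 in S72h.

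MiR-145a-5p, the guide arm of the neighbouring hairpin, took the opposite course. Its level in Control was 1973 CPM in the lowest mouse, 3395 CPM at the median and 5790 CPM in the highest, and in S6h it was 1570, 2556 and 4414 CPM. In S24h it was 4935, 7934 and 13708 CPM, so that every S24h mouse stood above the Control median and above every S6h mouse. Replicates 3 and 6 were the highest of S24h, at 13575 and 13708 CPM. In S72h it was 2607, 6106 and 8205 CPM, with 5 of 6 mice above the Control median and replicate 4 the exception. Its rank by mean CPM was 51 in Control, 55 in S6h, 28 in S24h and 35 in S72h.

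MiR-145a-3p, the passenger arm of the same hairpin, moved with miR-143-3p and not with its own partner. In Control it ran from 34.2 CPM through a median of 471 CPM to 1636 CPM, a wide range with replicate 1 far down (9 counts) and replicate 5 at the top (213 counts). In S6h it was 182, 569 and 914 CPM. In S24h it was 54.2, 136 and 270 CPM, which rests on only 4 to 20 counts per library. All 6 S24h mice lay below the Control median, yet above Control replicate 1, so these groups overlapped. In S72h it was 171, 295 and 461 CPM, from 19 to 54 counts, and all 6 mice were again below the Control median.

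MiR-143-5p, the passenger arm of miR-143, was close to the limit of what these libraries could show. It had 83 counts in all, spread over 10 of 24 libraries. In Control 3 libraries held 4 counts between them, and in S6h 4 libraries held 47 counts. In S24h its only counts were 12 in replicate 3 (100.3 CPM), and in S72h there were 2 in replicate 1 and 18 in replicate 6 (134.5 CPM). It reached 10 CPM in 8 libraries and was therefore left out of the test across miRNAs, which asked for 10 CPM in at least 12 libraries. The other 3 of the 4 arms were tested, together with a total of 252 miRNAs that held 99.7% of the counts.

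**Figure D1:**
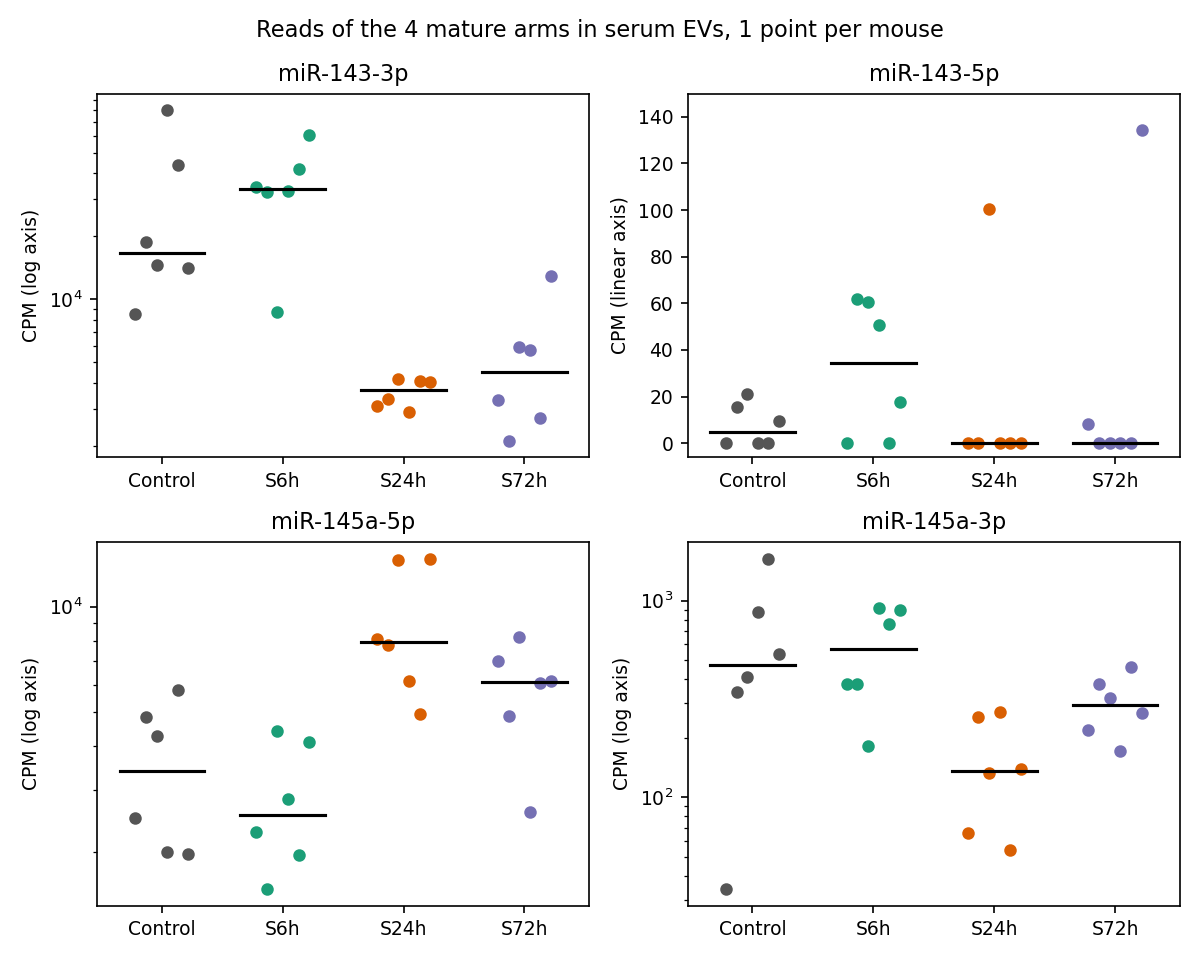
Level of each mature arm in serum EVs (y axis, CPM, logarithmic except for miR-143-5p) by group (x axis), with a point per mouse, 6 per group, and a bar at the median. The S24h mice lie between 2881 and 4179 CPM for miR-143-3p, below all Control mice, and between 4935 and 13708 CPM for miR-145a-5p, above all S6h mice.

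With guide arms moving in opposite directions, the make-up of the locus's reads turned over. Of the reads from the 4 arms in a library, miR-143-3p held 82.9% ± 7.83 (mean ± SD, n = 6) in Control and 88.0% ± 11.3 in S6h, but 29.7% ± 8.11 in S24h and 44.0% ± 18.2 in S72h. MiR-145a-5p held 15.1% ± 8.01 in Control, 10.3% ± 11.2 in S6h, 68.9% ± 8.08 in S24h and 52.9% ± 17.2 in S72h. The guide arm with more reads in Control mice was thus the one with fewer reads in S24h mice. The summed level of the 4 arms had a median of 21665 CPM in Control, 36992 CPM in S6h, 11317 CPM in S24h and 9901 CPM in S72h. Fewer vesicles from a given cell type and less of a miRNA in each vesicle cannot be told apart in such data. The same holds for miRNA bound to lipoproteins, which the authors say their precipitation method might carry along. CPM is a share of the library, so a change in other miRNAs also moves it.

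At 24 h against Control, all 3 tested arms changed, and not in the same direction. MiR-143-3p was 9.55-fold lower, miR-145a-3p was 4.51-fold lower and miR-145a-5p was 2.28-fold higher. In the edgeR quasi-likelihood test, with Benjamini-Hochberg adjustment over the 252 miRNAs, the log2 fold change of miR-143-3p was -3.25 (SE 0.51, adjusted p = 9.3e-05). That of miR-145a-3p was -2.17 (SE 0.60, edgeR adjusted p = 0.0141) and that of miR-145a-5p was 1.19 (SE 0.31, edgeR adjusted p = 0.0111). Both falling arms were therefore among the 7.94% of miRNAs called lower, and the rising arm among the 3.97% called higher; 11.9% were called in either direction, where a call needs an adjusted p under 0.05 and a change of at least 1.5-fold. Groups that did not overlap were seen in this comparison for 2.38% of miRNAs in the lower direction, miR-143-3p among them, and 2.38% in the higher direction, none of them a member.

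The sizes of these changes rested in part on the highest Control mice. Without Control replicate 4, the highest for miR-143-3p, its log2 fold change at 24 h was -2.56 and the edgeR call held (adjusted p = 0.000314). Without Control replicate 5, the highest for miR-145a-3p, that arm's log2 fold change was -1.70 and its edgeR call was lost (adjusted p = 0.0666). Taken over the 252 tested miRNAs, the median log2 change was -0.21 as scaled here and 0.08 with upper quartile factors, so a shift of that size belongs to the choice of scaling; 10 miRNAs were called higher and 20 lower as scaled here, against 23 and 17 with upper quartile factors, 17 and 20 with column totals, 18 and 19 with RLE factors and 23 and 27 with DESeq2.

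The arms of miR-145a come from a single duplex. Their ratio, like any ratio of miRNAs within a library, does not depend on how libraries are scaled. In Control the 5p arm outnumbered the 3p arm by 2.27 in the lowest mouse, 6.95 at the median and 66 in the highest, counting 1 read extra for each arm. In S6h the ratio was 2.57, 4.34 and 23.4. In S24h it was 21.6, 83.5 and 103, and in S72h it was 12.5, 18.4 and 31.3. Every operated and every Control mouse had more 5p than 3p, and all 6 S24h mice lay above 5 of the 6 Control mice, the exception being Control replicate 1. Put as the passenger's share of miR-145a reads, the 3p arm made up 14.9% of the pooled reads in Control (457 of 3066), 18.6% in S6h (874 of 4697), 1.45% in S24h (82 of 5643) and 4.35% in S72h (193 of 4432).

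The mean log2 ratio of miR-145a-5p to miR-145a-3p was 3.01 ± 1.79 (SD, n = 6) in Control and 5.88 ± 0.98 in S24h. The difference of 2.88 gave p = 0.0108 in an exact two-sided permutation test of the 12 mice, and 0.026 after Benjamini-Hochberg adjustment over the 24 ratio tests. Control replicate 1 was the Control mouse nearest to S24h, and without it the difference was 3.48 (exact permutation test, adjusted p = 0.013). In S72h the mean was 4.21 ± 0.56, a difference from Control that missed the threshold (exact permutation test, adjusted p = 0.179) and that passed it, at 1.81, without Control replicate 1 (adjusted p = 0.0173 in the exact test).

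The shift between the miR-145a arms at 24 h stood out among the hairpins that could be compared in the same way. In 50 hairpins both arms passed the filter, and limma was run on their log2 ratio of 5p to 3p. MiR-145a had the smallest p of them at 24 h against Control and the only one called, which is 2% of hairpins (difference 2.88, SE 0.71, limma adjusted p = 0.0235). The median difference over the 50 hairpins was 0.11. The next by p were miR-151, with a difference of 1.63 (limma adjusted p = 0.074), and miR-23a, with the larger difference of 3.12 (limma adjusted p = 0.192) from a 5p arm that averaged only 66.3 CPM in Control and 366 CPM in S24h. MiR-145a was also the only hairpin whose arms were both called by edgeR in opposite directions, both against Control and against S6h, whereas both arms of miR-423 were called higher at 24 h against Control and both arms of miR-215 lower. The limma call of miR-145a at 24 h was lost without Control replicate 5 (difference 2.64, adjusted p = 0.0856), Control replicate 6 (2.65, 0.0862), S24h replicate 3 (2.74, 0.0708), S24h replicate 5 (2.81, 0.0592) or S24h replicate 6 (2.74, 0.0705).

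**Figure D2:**
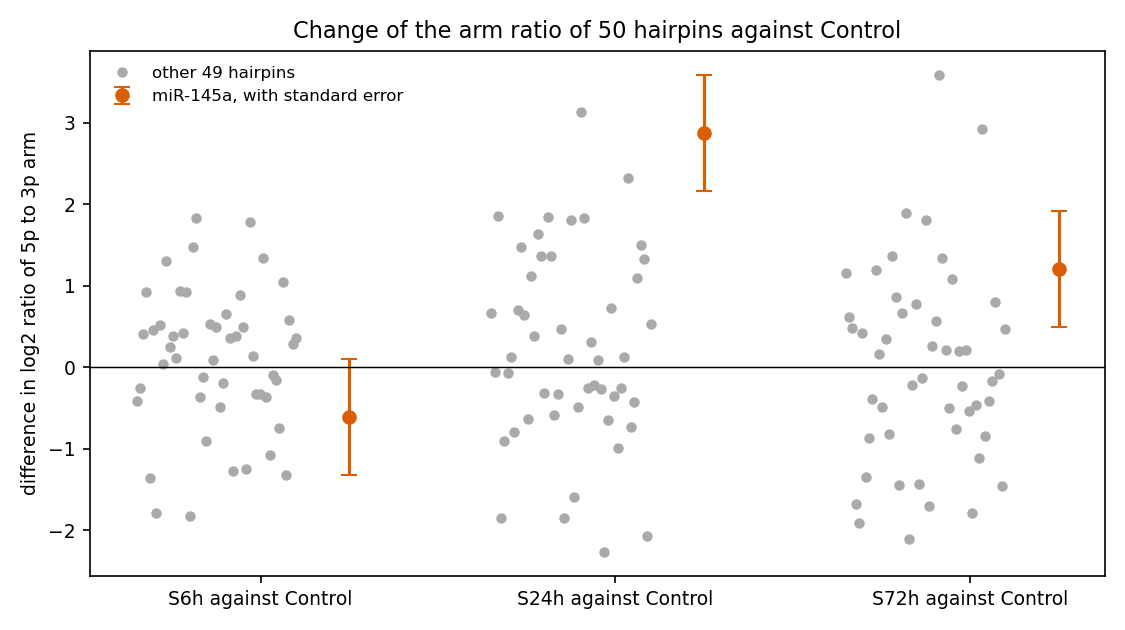
Change of the log2 ratio of 5p to 3p reads against Control (y axis) for 50 hairpins in S6h, S24h and S72h (x axis); grey points are the other 49 hairpins and the orange point is miR-145a with its standard error. At 24 h miR-145a lies at 2.88, with a single hairpin, miR-23a, above it at 3.12.

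Set against each other, the guide arms of the neighbouring hairpins changed places. In Control there were 3.39 reads of miR-143-3p to 1 of miR-145a-5p in the lowest mouse, 5.48 at the median and 39.9 in the highest. In S6h the ratio was 1.97, 14.9 and 21.2. In S24h it was 0.293, 0.407 and 0.822, below 1 in all 6 mice, and in S72h it was 0.435, 0.597 and 2.18, above 1 in 2 of 6. MiR-143-3p was the more abundant in every Control and S6h mouse, and S24h and S72h had no value in common with Control.

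As log2 ratios these were 2.76 ± 1.36 (SD, n = 6) in Control, 3.52 ± 1.29 in S6h, -1.24 ± 0.54 in S24h and -0.28 ± 1.11 in S72h. The differences of -4.00 at 24 h and -3.04 at 72 h against Control each gave p = 0.00216, the smallest that an exact two-sided permutation test of these groups can give, and 0.0173 after adjustment. At 6 h against Control the difference was 0.76 (exact permutation test, adjusted p = 0.403). Control replicate 4, at 5.32, and S6h replicate 3, at 0.98, stood apart from the rest of their groups.

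MiR-143-3p and miR-145a-3p were both lower at 24 h, and their ratio was compared in the same way. In S24h the log2 ratio was 4.64 ± 0.98 (SD, n = 6), against 5.76 ± 1.21 in Control, a difference of -1.12 (exact permutation test, adjusted p = 0.168). In S72h it was 3.92 ± 1.26, a difference of -1.84 from Control that missed the threshold (exact permutation test, adjusted p = 0.0559). That difference passed the threshold in the exact test without Control replicate 5 (-2.04, adjusted p = 0.048), Control replicate 6 (-2.05, 0.044), S72h replicate 4 (-2.05, 0.0476) or S72h replicate 6 (-2.16, 0.0346). Leaving out S6h replicate 3, a mouse outside this comparison, left the difference at -1.84. The exact test then gave an adjusted p of 0.0485, through the adjustment over the 24 ratio tests alone. The ratio of miR-143-3p to its own passenger arm could not be followed, since miR-143-5p had 0 counts in 3 Control, 5 S24h and 4 S72h libraries.

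**Figure D3:**
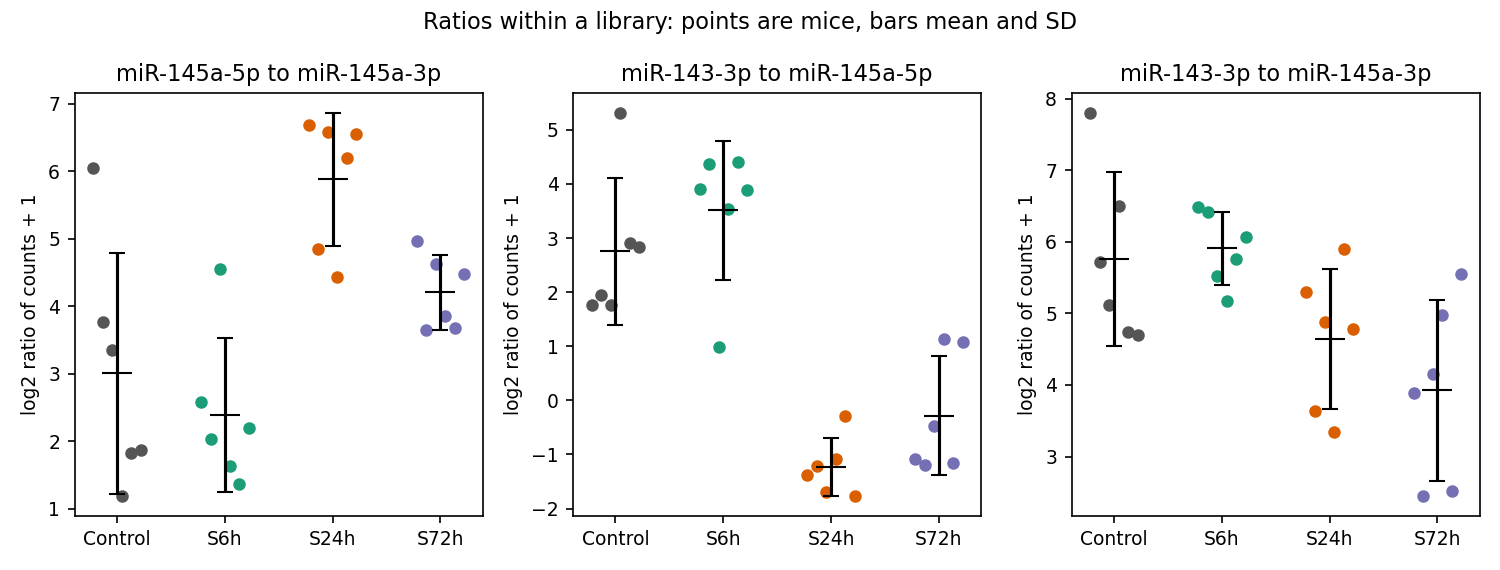
Log2 ratio of read counts (y axis, 1 read added to each arm) for 3 pairs of arms by group (x axis); points are mice, 6 per group, and bars are the mean and SD. MiR-143-3p to miR-145a-5p goes from a mean of 2.76 in Control to -1.24 in S24h, and miR-145a-5p to miR-145a-3p from 3.01 to 5.88.

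At 72 h against Control, the fall of miR-143-3p was still present and the other arms were no longer called. MiR-143-3p was 5.22-fold lower, with all 6 mice below the Control median. Its log2 fold change was -2.38 (SE 0.49, edgeR adjusted p = 0.00794), which placed it among the 1.59% of miRNAs called lower; 1.98% were called higher and 3.57% in either direction. These shares are not firm, since the 9 calls became 0 with the 2 groups alone, 2 with column totals, 19 with upper quartile factors and 21 with DESeq2, and ran from 1 to 14 with a library left out. MiR-145a-5p had a log2 fold change of 0.77 (edgeR adjusted p = 0.168) and miR-145a-3p one of -1.01 (edgeR adjusted p = 0.361). Without Control replicate 4 the value for miR-143-3p was -1.69 (edgeR adjusted p = 0.0398), and in a model of the 2 groups alone it was -2.45 and not called (edgeR adjusted p = 0.0941). Groups without overlap made up 1.19% of miRNAs in the lower direction and 0% in the higher, and no member was among them. No hairpin had a called change of arm ratio in this comparison (0% of 50 by limma; 5 at an unadjusted p under 0.05); for miR-145a the limma adjusted p was 0.511.

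At 6 h against Control no arm was called, nor was any other miRNA (0% of 252 by edgeR, with 9 at an unadjusted p under 0.05, and 0 by DESeq2). MiR-143-3p had a log2 fold change of 0.29, with 5 of 6 S6h mice above the Control median and replicate 3 below it (edgeR adjusted p = 0.991). It was 0.98 without Control replicate 4 and 0.05 without S6h replicate 6, and not called in either case. The values were -0.22 for miR-145a-5p and 0.02 for miR-145a-3p, each with an edgeR adjusted p of 0.991. The approximate 95% intervals ran from -0.63 to 1.21 for miR-143-3p, from -0.83 to 0.39 for miR-145a-5p and from -1.08 to 1.12 for miR-145a-3p. A rise of about 2-fold in either 3p arm, or a fall of about 2-fold in miR-145a-3p, was thus within what these groups allow. The miR-145a arm ratio differed by -0.61 (exact permutation test, adjusted p = 0.566; limma adjusted p = 0.927).

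Against S6h, where anaesthesia and surgery were shared, all 3 tested arms were called in S24h and both guide arms in S72h. The contrasts against S6h and those against Control share the S24h and S72h libraries. At 24 h miR-143-3p was 11.7-fold lower than at 6 h (log2 fold change -3.54, edgeR adjusted p = 1.81e-05) and miR-145a-3p was 4.57-fold lower (-2.19, edgeR adjusted p = 0.00941), among 13.9% of miRNAs called lower. MiR-145a-5p was 2.66-fold higher (log2 fold change 1.41, edgeR adjusted p = 0.00159), among 6.35% called higher, out of 20.2% called in all. These shares depend on the scaling, with 16 miRNAs called higher and 35 lower as scaled here. The counts were 19 and 18 with column totals, 22 and 21 with RLE factors, 23 and 20 with upper quartile factors and 27 and 30 with DESeq2. Both guide arms had values in S24h that did not overlap S6h, as had 5.56% of miRNAs in the lower and 4.76% in the higher direction. The log2 ratio of the miR-145a arms was 3.49 higher in S24h than in S6h (exact permutation test, adjusted p = 0.0208), again the smallest p of the 50 hairpins in limma (adjusted p = 0.00261). There 6% were called, the others being miR-335, with the larger difference of -4.05, and miR-674, at 2.82 (limma adjusted p = 0.0056 for each). The log2 ratio of miR-143-3p to miR-145a-5p fell by 4.76 (exact permutation test, adjusted p = 0.0173).

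By 72 h miR-143-3p was 6.38-fold lower than at 6 h (log2 fold change -2.67, edgeR adjusted p = 0.00171), and all 6 mice were below the S6h median; 5.56% of miRNAs were called lower. MiR-145a-5p was 1.99-fold higher (log2 fold change 0.99, edgeR adjusted p = 0.0365), with all 6 mice above the S6h median, among 4.37% called higher and 9.92% called in all. That call was narrow: it was lost in the edgeR test without S6h replicate 1 (0.92, adjusted p = 0.0765), 2 (0.86, 0.0901), 4 (1.03, 0.0659) or 5 (0.90, 0.0939), or without S72h replicate 1 (0.85, 0.0801), 3 (0.94, 0.0651) or 5 (1.01, 0.0656). It was also lost with column totals (1.02, edgeR adjusted p = 0.0548) and with no filter on low counts (1.09, edgeR adjusted p = 0.0626). MiR-145a-3p had a log2 fold change of -1.03 (edgeR adjusted p = 0.300). No member's values in S72h were free of overlap with S6h; 1.19% of miRNAs were in the lower and 0.397% in the higher direction. The miR-145a arm ratio was 1.82 higher than at 6 h in the exact permutation test (adjusted p = 0.026), a difference not called in limma over the 50 hairpins (adjusted p = 0.133; 0% called, 9 at an unadjusted p under 0.05) unless S6h replicate 3 was left out (2.25, limma adjusted p = 0.0484). MiR-143-3p to miR-145a-5p was lower by a log2 ratio of -3.80 and miR-143-3p to miR-145a-3p by -1.98 (exact permutation tests, adjusted p = 0.0223 for each).

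MiR-143-3p to miR-145a-3p was also lower in S24h than in S6h, by a log2 ratio of -1.27 (exact permutation test, adjusted p = 0.0346). The exact test lost this call without S6h replicate 1 (-1.15, adjusted p = 0.0759), 2 (-1.16, 0.0705), 5 (-1.29, 0.0599) or 6 (-1.23, 0.0719), or without S24h replicate 2 (-1.06, 0.0599), 4 (-1.01, 0.0599) or 6 (-1.29, 0.0519).

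From 24 to 72 h no arm was called, and each estimate lay on the Control side of S24h. The log2 fold change of S72h against S24h was 0.87 for miR-143-3p (edgeR adjusted p = 0.460), -0.42 for miR-145a-5p (edgeR adjusted p = 0.721) and 1.16 for miR-145a-3p (edgeR adjusted p = 0.439). For miR-145a-3p all 6 S72h mice lay above the S24h median. Among all miRNAs 0.397% were called by edgeR, which is 1 miRNA, called higher, with 29 at an unadjusted p under 0.05 and 4 called by DESeq2. The ratio of the miR-145a arms did move, with a log2 difference of -1.67 (exact permutation test, adjusted p = 0.0331). It missed the threshold in the exact test without S72h replicate 2 (-1.56, adjusted p = 0.0563) or S72h replicate 5 (-1.57, 0.0519), and limma over the 50 hairpins did not call it (adjusted p = 0.582; 0% called, 3 at an unadjusted p under 0.05). In order of median level, miR-143-3p was highest in S6h, then Control, S72h and S24h, and neither S6h and Control nor S72h and S24h differed beyond their spread. MiR-145a-5p had the order S24h, S72h, Control, S6h, in which no neighbouring groups differed in the edgeR test. MiR-145a-3p had the order S6h, Control, S72h, S24h, also with no call between neighbours.

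Within a group, mice with more miR-143-3p did not reliably have more of the other arms. Pearson's r between miR-143-3p and miR-145a-3p was 0.74 in Control (exact permutation p = 0.0333, adjusted over 12 relations 0.2; rho 0.71, exact p = 0.136) and 0.87 in S6h (exact permutation p = 0.0194, adjusted 0.2; rho 0.83, exact p = 0.0583). Without the 2 mice farthest from the median of miR-143-3p it was 0.81 and 0.88. It was -0.47 in S24h and -0.78 in S72h, with exact permutation p = 0.317 and 0.0639, and without the 2 farthest mice -0.10 and -0.69. MiR-143-3p and miR-145a-5p had r between -0.21 and 0.16 in the 4 groups, and between -0.44 and 0.93 without the 2 farthest mice. The miR-145a arms had r between -0.38 and 0.15, and between -0.55 and 0.98 without the 2 farthest mice, so these values shift with 2 mice. None of the 12 relations passed the adjusted threshold, and 6 mice per group leave each of them loosely measured.

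Over all 24 libraries, whose groups differ in level, the arms of miR-145a resembled different miRNAs. The miRNAs most like miR-143-3p, by Pearson's r of log2 CPM, were miR-22-3p (0.87), miR-16-5p (0.86) and miR-29a-3p (0.84). MiR-145a-3p was at place 17 of 251 (0.67) and miR-145a-5p at place 234 (-0.68). Those most like miR-145a-5p were miR-221-3p (0.82), miR-140-3p (0.77) and miR-423-3p (0.74), while miR-143-3p was at place 251 of 251. Those most like miR-145a-3p were miR-30e-5p (0.75), miR-29c-3p (0.71) and miR-29a-3p (0.71), with miR-143-3p at place 6. As deviations from group means, which set the group levels aside, the r of miR-143-3p was 0.65 with miR-22-3p, 0.57 with miR-16-5p and 0.48 with miR-29a-3p, and its nearest were then miR-215-3p (0.73), miR-30a-5p (0.69) and miR-30e-5p (0.65). That of miR-145a-5p was 0.60 with miR-221-3p, 0.59 with miR-140-3p and 0.33 with miR-423-3p, and its nearest were then miR-181a-5p (0.68) and miR-421-3p (0.63). That of miR-145a-3p was 0.72 with miR-30e-5p, 0.46 with miR-29c-3p and 0.49 with miR-29a-3p, and behind miR-30e-5p its nearest were then miR-142a-5p (0.57) and miR-20a-5p (0.54). Between members, r on this scale was 0.50 for miR-143-3p with miR-145a-3p, -0.07 for miR-143-3p with miR-145a-5p and 0.09 for the miR-145a arms.

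Some other miRNAs, from a list drawn up for smooth muscle and vessel wall, were called at 24 h, in both directions. In this list and those below, a listed miRNA need not be made only by the cells that the list names. Of 17 tested, 1 was called higher and 3 lower against Control by edgeR, with a median log2 fold change of -0.75, beside 10 higher and 20 lower of all 252 and a median of -0.21. MiR-26a-5p was higher (log2 fold change 1.02), and miR-29a-3p (-1.31), miR-29c-3p (-3.71) and miR-27b-3p (-1.88) were lower. The list was not tested against the rest of the miRNAs. DESeq2, RLE factors and column totals each called 2 higher and 3 lower. The summed level of the list had a median of 213230 CPM in Control, 268135 in S6h, 198728 in S24h and 203488 in S72h. It shares 2 miRNAs, miR-1a-3p and miR-133a-3p, with the skeletal and heart muscle list, and in S6h miR-1a-3p led it with a mean of 125571 CPM. Of 10 mesenchymal miRNAs, 0 were called higher and 2 lower (median -0.56), namely miR-199a-3p at -1.66 and miR-22-3p at -1.69. At 72 h against Control, 1 of the 17 was called higher (miR-26a-5p) and 0 lower, and of the 10 mesenchymal ones 1 was called lower (miR-10b-5p, -1.21), beside 5 higher and 4 lower of all 252. With column totals, edgeR called 0 of the 17 and 0 of the 10 at 72 h, beside 0 higher and 2 lower of all 252. In S24h against S6h, 1 of the 17 was called higher and 6 lower, and of the 10 mesenchymal ones 1 higher and 3 lower, beside 16 higher and 35 lower of all 252.

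Some miRNAs listed as markers of red cells were lower at 24 h. Of 6 erythroid miRNAs in the table, 4 were called lower by edgeR at 24 h against Control (median log2 fold change -1.24), namely miR-451a (-1.42), miR-486a-5p (-1.26), miR-486b-5p (-1.22) and miR-16-5p (-1.20), beside 20 of all 252 (7.94%). At 72 h against Control, where miR-143-3p was still called lower, 1 of the 6 was called lower by edgeR (miR-16-5p, -1.01). DESeq2 called 3 of the 6 lower, and edgeR with column totals called 0. The list median was -0.90 in edgeR as scaled here, beside 1.59% of all 252 called lower. In S24h against S6h 2 of the 6 were called lower (miR-451a, -1.27, and miR-16-5p, -1.38), beside 13.9% of all. The miR-486 pair shares a mature sequence, and counted as a single miRNA it leaves 3 of 5 called lower, with a median of -1.22 when miR-486b-5p stands for the pair. MiR-144-3p (-1.40, edgeR adjusted p = 0.0744) and miR-144-5p (-0.10, edgeR adjusted p = 0.907) were not called. The summed level of the list had a median of 144770 CPM in Control, 126714 in S6h, 67657 in S24h and 68406 in S72h, with the miR-486 pair together the most abundant (107322 CPM on average in Control) and no listed miRNA at 0 throughout a group. S72h replicate 6, the highest of its group for miR-143-3p, also had the highest sum of S72h, at 177485 CPM. The other S72h mice ran from 45196 to 112631 CPM. In S6h, replicate 6 was likewise the highest for both, with a sum of 142850 CPM. It was otherwise in Control and S24h. The highest Control sum, 198358 CPM, was in replicate 1, the lowest for miR-143-3p. The highest S24h sum, 130370 CPM, was also in replicate 1, while replicate 3 was the highest for miR-143-3p. With the list taken out of the totals and of the scaling, a choice made after seeing the data, the edgeR calls of the arms at 24 h were the same. The part of red cell miRNA in the fall of miR-143-3p was not tested.

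The remaining lists are given for 24 h against Control, where edgeR called 3.97% of all 252 miRNAs higher and 7.94% lower. Of 2 endothelial miRNAs (median log2 fold change 0.61), 5 of skeletal and heart muscle (-0.78), 4 of platelets (-0.08), 7 of leukocytes (0.28) and 6 of epithelia (-1.23), 0 were called by edgeR in either direction. Of 4 liver miRNAs 1 was called lower, miR-148a-3p (-1.62), with a list median of -1.75. In S24h against S6h 3 of the 5 muscle miRNAs were called lower, 2 of them also in the smooth muscle list, beside 13.9% of all. Of the platelet list 1 was called higher and 2 lower, of the leukocyte list 1 and 1, and of the epithelial list 0 and 2. The platelet list shares miR-24-3p with the smooth muscle list, miR-223-3p with the leukocyte list and miR-126a-3p with the endothelial list. MiR-24-3p, called lower in S24h against S6h (-1.01), is thus counted in both the smooth muscle and the platelet list. The summed liver list, led by miR-122-5p, split the Control mice into replicates 1, 4 and 6 at 176433, 169030 and 145479 CPM and replicates 2, 3 and 5 at 8584, 19952 and 14751 CPM. It ran from 8639 to 34699 CPM in S6h and from 10172 to 63564 CPM in S24h. In S72h it stood at 313881 CPM in replicate 4, whose TMM factor was 0.599, and between 6583 and 26024 CPM in the others. Replicate 4 was also the S72h mouse with the lowest CPM of miR-145a-5p. Without it the log2 fold change of miR-145a-5p at 72 h against Control was 0.94, still not called by edgeR. The summed skeletal and heart muscle list, led by miR-1a-3p, had medians of 53278, 117926, 33230 and 27754 CPM in Control, S6h, S24h and S72h, with S72h replicate 1 apart at 237408 CPM. The part of liver or muscle miRNA in the levels of the miR-143 and miR-145a arms was not tested. The heart miRNA miR-208a-3p was at 0 in all Control and S24h libraries and averaged only 8.30 CPM in S6h and 5.33 CPM in S72h, too little to follow at this depth. MiR-199b-5p of the mesenchymal list was at 0 in Control, and miR-429-3p of the epithelial list was at 0 in S24h.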

How the data were processed

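The deposited table holds read counts, not normalized, per mature miRNA of miRBase for 24 serum EV libraries. The authors aligned reads to GRCm38, kept those of 20 to 24 bases and counted them; PCR copies were not merged. The members and lists were chosen with earlier results of these data known. MiRNAs with at least 10 CPM in at least 12 libraries were scaled by TMM and fitted in 1 edgeR 4.0.16 quasi-likelihood model of the 4 groups (R 4.3.3). A call needed a change of at least 1.5-fold and an adjusted p (Benjamini-Hochberg) under 0.05. Exact permutation tests, two-sided, compared ratios within a library (1 count added), and arm ratios over hairpins by limma 3.58.1 (Python 3.11.15 for the rest). The edgeR and limma steps were run on simulated data with less spread than these data, whose common dispersion was 0.685. There edgeR called 181 of 199 miRNAs changed by a log2 of 2, and 14 unchanged ones. Limma called all 10 hairpins changed by a log2 of 3. How the steps perform at the spread of these data was not tested. Alternatives were DESeq2 1.42.0, other scalings, filters, models, added counts, a replicate block and each library left out; scaling without the erythroid list was chosen after seeing the data. The floor for an arm with 0 counts was 3 counts. Named miRNAs are the members, miR-145b, the listed markers, the 3 most like each tested member, the 3 hairpins with the smallest p at 24 h and hairpins with arms called in opposite directions; miR-423, miR-215, miR-335, miR-674 and the miRNAs nearest after group means were removed were named after their values were seen. MiR-486a-5p and miR-486b-5p share a mature sequence and cannot be told apart by reads.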

Additional observations from a re-analysis of the deposited data

Results flagged for a closer look

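In some sets of 6 values a mouse lay far from the others of its group. Its distance from the next value, as a share of the group's full range, was 0.651 for miR-143-3p in S72h replicate 6. For the log2 ratio of miR-143-3p to miR-145a-5p it was 0.675 in Control replicate 4 and 0.749 in S6h replicate 3. These are 3 of the 24 sets without miR-143-5p, where chance gives about 1 in 20, or 1.2. The share was also 1 for miR-143-5p in S24h replicate 3 and 0.939 in S72h replicate 6, but 5 and 4 of the 6 libraries had 0 counts there. A lone library with counts gives 1 whatever its count, and nothing is read from these shares.

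Several differences from Control were not the same in the 3 operated groups, by a test of the operated groups against each other, in which Control cancels out. The log2 fold change of S24h against Control less that of S6h was -3.54 for miR-143-3p, 1.41 for miR-145a-5p and -2.19 for miR-145a-3p in edgeR. For S72h less S6h it was -2.67 for miR-143-3p and 0.99 for miR-145a-5p. By exact permutation tests, the log2 ratio of miR-145a-5p to miR-145a-3p differed by 3.49 between S24h and S6h, 1.82 between S72h and S6h, and -1.67 between S72h and S24h. The log2 ratio of miR-143-3p to miR-145a-5p differed from S6h by -4.76 in S24h and -3.80 in S72h, and that of miR-143-3p to miR-145a-3p by -1.27 and -1.98. The groups differ in daily analgesia as well as in time, which cannot be told apart. Between S6h and the later groups, neither can any difference between the 6 h set of animals and the later set. No explanation was tested for any of these results.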

How the results depend on the processing

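No called value changed direction among the member fold changes, ratios and call counts; under the alternatives 307 stayed on their side of the threshold or near their count, 20 lost it, 3 gained it and 12 counts moved by over 1.5 times. In a model of the 2 groups alone, miR-143-3p at 72 h against Control was -2.45 and not called. MiR-145a-5p in S72h against S6h was not called with column totals (1.02) or no filter (1.09). Called miRNAs numbered 2 for S6h against Control with no filter and 50 for S24h against Control with DESeq2. For S72h against Control they numbered 21 with DESeq2, 19 with upper quartile factors, 2 with column totals, 18 with a mean of at least 100 CPM, 0 with the 2 groups alone, 1 with the replicate block and 3 without the erythroid list, and for S72h against S24h 4 with DESeq2, 10 with no filter and 0 with the 2 groups alone. Other scalings moved the split of higher and lower calls: for S24h against S6h from 16 and 35 to 23 and 20, for S72h against S6h from 11 and 14 to 19 and 10, and for S72h against Control from 5 and 4 to 16 and 3, each with upper quartile factors. The ratio of miR-143-3p to miR-143-5p, mostly against 0 counts, is listed here for its dependence on the added count and was not read as a change. With 0.5 counts added, miR-143-3p to miR-143-5p was -2.93 at 24 h and -2.81 at 72 h against Control, and miR-143-3p to miR-145a-3p -1.21 in S24h against S6h, none of them past the threshold any more. With 4 counts added, miR-143-3p to miR-143-5p passed at -3.33 in S24h and -2.90 in S72h against S6h, and miR-143-3p to miR-145a-3p at -1.83 in S72h against Control. In limma the miR-145a arm ratio was 1.82 in S72h against S6h and -1.67 in S72h against S24h, neither called.

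Replicate numbers mark no shared animal: deviations of libraries with the same number had a median r of -0.002, and with other numbers -0.001. The exact test with the replicate block cannot go below p = 0.0312. With it these ratio differences, which the block leaves as they are by construction, had an adjusted p of 0.0625 and lost their call: 2.88, 3.49, 1.82 and -1.67 for the miR-145a arms, -3.08 and -2.84 for miR-143-3p to miR-143-5p, -4.00, -3.04, -4.76 and -3.80 for miR-143-3p to miR-145a-5p, and -1.98 for miR-143-3p to miR-145a-3p. For -1.27, the S24h against S6h difference of that last ratio, the adjusted p was 0.107.

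With each library left out in turn, 1233 values stayed on their side of the threshold or near their count, 25 lost the threshold, 9 gained it and 29 counts moved. MiR-145a-3p at 24 h against Control ran from -2.45 to -1.70 and miR-145a-5p in S72h against S6h from 0.85 to 1.14. The miR-145a arm ratio ran from 0.84 to 1.81 in S72h against Control, from -1.96 to -1.51 in S72h against S24h, from 2.51 to 3.48 in limma at 24 h against Control and from 1.61 to 2.25 in limma in S72h against S6h. MiR-143-3p to miR-143-5p ran from -3.22 to -2.31 in S72h against Control, from -3.19 to -2.06 in S24h against S6h and from -2.95 to -1.81 in S72h against S6h. MiR-143-3p to miR-145a-3p ran from -2.16 to -1.43 in S72h against Control and from -1.52 to -1.01 in S24h against S6h. Called miRNAs ran from 1 to 14 for S72h against Control (moved by leaving out any library but Control 3, S6h 3, 4 and 6, S24h 2 and 5, and S72h 4 and 6; 14 without S72h 1), from 32 to 53 for S24h against S6h (32 without S6h 4, S6h 6 or S24h 3), from 13 to 35 for S72h against S6h (14 without S6h 4, 16 without S6h 6, 13 without S72h 5) and from 1 to 5 for S72h against S24h (5 without S24h 2, S72h 2 or S72h 5, 3 without S72h 1, and 2 without S6h 1, S6h 3 or S24h 6). MiR-143-3p at 6 h against Control ran from 0.05 to 0.98. Depth limits miR-143-5p, with 83 counts in 10 libraries, and miR-145a-3p, with 4 to 20 counts per S24h library.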
